A study of Mus musculus with 2 samples.

Results

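Transcripts of 10 endothelial genes were followed through the deposited immune clusters of 2 kidney scRNA-seq libraries. The 10 genes were Kdr, Emcn, Pecam1, Cdh5, Flt1, Egfl7, Plvap, Ehd3, Eng and Igfbp5, out of 20299 genes in the count matrix. They were picked with their levels in these libraries already known, so their levels by cluster and library are a description and carry no test. Unique molecular identifiers (UMIs, counted molecules) were summed over the cells of each deposited cluster and library and are given as counts per 1000000 UMIs of the same cells (CPM).

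Both libraries came from kidneys of 8-week-old C57BL/6 mice with nephrotoxic serum nephritis (NTN), an antibody-driven glomerular injury. Per the labels, the mice were first immunized with 200 μg of sheep IgG in Freund's complete adjuvant and received 2 μL of sheep nephrotoxic serum per g of body weight 4 days later. The paper's methods give a larger serum volume. One library was of the WT genotype and the other of the Vsir-/- genotype, which lacks the gene of the checkpoint receptor VISTA. The labels describe the WT library as sorted CD45+ cells and the Vsir-/- library as kidney cells of every kind, whereas the methods describe a CD45+ sort for both. Genotype and the possible difference in sorting cannot be told apart, and neither can fewer cells of a type and less RNA per cell in a summed level. With 1 library per genotype there was no replicate check. All intervals below are 95% intervals that cover counting error only.

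Endothelial cells line every vessel of the kidney, from the fenestrated capillaries of the glomerulus to the peritubular capillaries and the vasa recta of the medulla. They do not belong to the CD45+ lineage, although several of their surface proteins are shared with leukocytes. Kdr and Flt1 encode the receptors for VEGF, on which glomerular capillaries depend. Cdh5 encodes VE-cadherin of the endothelial junctions, Emcn the sialoglycoprotein endomucin, and Plvap the diaphragm protein of fenestrated peritubular capillaries. Ehd3 encodes an endocytic protein enriched in glomerular endothelium, and Egfl7 a protein secreted by endothelium. Pecam1 (CD31) and Eng (endoglin, a TGF-β coreceptor) are also made by leukocytes, and Igfbp5, an IGF-binding protein, is also made by stromal cells. The first 7 genes of this account, namely Kdr, Flt1, Cdh5, Emcn, Plvap, Ehd3 and Egfl7, are called the core genes below.

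The promoter table (RefSeq, build GRCm38.p6) held 7 of the 10 genes, in 9 windows. Endothelial genes are known targets of ETS transcription factors. The 250 bases before the start were searched for a short ETS-type motif, AGGAAG, and for its reverse complement, with overlapping matches counted. At least 1 window each of Emcn, Flt1, Eng and Egfl7 held it, 4 of the 7 genes, and those of Kdr, Ehd3 and Igfbp5 did not. Egfl7 has several windows, and 1 of them had 0 matches. Of all 32851 windows of this length, 29.5% held the letters, a share of windows and not of genes. A match is thus a description of the window only. Pecam1, Cdh5 and Plvap were not in the table. Emcn, the core gene with the most UMIs, is shown with the genes of both VEGF receptors, 1 window with matches and 1 without, 5′ to 3′ with matches on either strand in capitals.
Emcn (chr3:137340828-137341077, plus strand): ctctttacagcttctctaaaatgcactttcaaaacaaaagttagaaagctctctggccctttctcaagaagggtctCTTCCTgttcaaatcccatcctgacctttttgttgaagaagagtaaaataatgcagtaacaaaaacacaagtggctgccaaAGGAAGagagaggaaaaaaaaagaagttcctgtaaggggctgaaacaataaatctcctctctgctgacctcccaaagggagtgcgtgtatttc
Flt1 (chr5:147726012-147726261, minus strand): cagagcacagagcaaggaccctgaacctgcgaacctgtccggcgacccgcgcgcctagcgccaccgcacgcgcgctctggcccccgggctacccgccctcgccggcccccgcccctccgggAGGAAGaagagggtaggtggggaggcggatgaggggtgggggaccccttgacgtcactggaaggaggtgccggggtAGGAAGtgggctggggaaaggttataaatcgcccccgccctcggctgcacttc
Kdr (chr5:75978456-75978705, minus strand): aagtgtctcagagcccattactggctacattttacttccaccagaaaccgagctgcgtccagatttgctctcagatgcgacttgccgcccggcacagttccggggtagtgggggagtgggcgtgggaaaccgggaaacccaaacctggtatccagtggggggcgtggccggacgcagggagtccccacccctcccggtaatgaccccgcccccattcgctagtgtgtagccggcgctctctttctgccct

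The Vsir-/- library held 1844 cells with 18601189 UMIs (median 6673 per cell) and the WT library 5470 cells with 32799550 UMIs (median 4726.5), and 5 barcodes occurred in both. Vsir, the deleted gene, had 8 UMIs (0.430 CPM) in the Vsir-/- library and 4278 (130.4 CPM) in the WT library. Ptprc, which encodes CD45, was detected in 73.6% of Vsir-/- cells and 94.2% of WT cells. Of the 16 clusters, the NKT cluster held no Vsir-/- cell and the basophil cluster 2. Zeros differ in meaning between the libraries. No gene was detected in exactly 1 WT cell, 140 genes were detected in 2 to 4 WT cells and 5348 in none, whereas in the Vsir-/- library 2332 genes were detected in 1 to 4 cells. A WT gene seen in fewer than 5 cells may therefore be listed at 0, and no fold or limit is given for the 4 members listed at 0 in WT.

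The core genes together made up 1957 CPM of the Vsir-/- library (36396 UMIs) and 27.01 CPM of the WT library (886 UMIs). Emcn had 11188 UMIs (601.5 CPM) in the Vsir-/- library and was listed at 0 in WT. Plvap with 1833 UMIs, Cdh5 with 2482 UMIs and Igfbp5 with 14813 UMIs were likewise listed at 0 in WT. The WT level of these 4 genes is thus not known beyond the listed 0, which may stand for detection in fewer than 5 cells. Kdr had 310.1 CPM in the Vsir-/- library against 0.427 CPM in WT, where its 14 UMIs lay in 14 cells. Egfl7 had 276.2 CPM against 0.305 CPM. Eng had 292.6 CPM against 2.80 CPM.

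The gap was smaller for genes with WT signal. Flt1 had 164.2 CPM in the Vsir-/- library and 5.49 CPM in WT, a log2 ratio of 4.90 (4.69 to 5.13). Ehd3 had 372.7 and 20.8 CPM, a log2 ratio of 4.16 (4.05 to 4.28). Pecam1 had 150.2 and 60.2 CPM, a log2 ratio of 1.32 (1.24 to 1.40), the smallest among the 6 genes with WT UMIs. Of the 6 members with WT UMIs, 5 were at least 4-fold higher in the Vsir-/- library, Pecam1 being the exception. With 0.5 UMIs added to each count, 23.6% of all 15687 genes with at least 20 UMIs were, genes listed at 0 in WT included. The choice of genes used this contrast, so the count adds nothing to it.

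Within the Vsir-/- library the core genes were unevenly spread over the clusters. The proliferating cluster stood highest at 4369 CPM (4307 to 4430), followed by the CD4+ T cells named non-EM-like (not effector memory-like) at 2645 CPM. Together they held most of the library's core UMIs, 53.3% and 33.4%. B cells followed at 1519 CPM and the resident macrophages (R1) at 1208 CPM. The B cell value rested on few cells, since 1 cell held 520 of the 797 core UMIs. The other clusters of at least 19 cells lay between 572 CPM in the Other R2 cluster (kidney-infiltrating macrophages) and 34.4 CPM in ILC2 (innate lymphoid cells). When every cell was weighted equally, the proliferating cluster (2800 CPM) and the non-EM-like CD4+ cluster (1729 CPM) remained the highest, and R1 (551 CPM) stood above B cells (482 CPM). The median cell held 1 core UMI in each of the 2 leading clusters, so the high sums came from a minority of their cells.

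**Figure D1:**
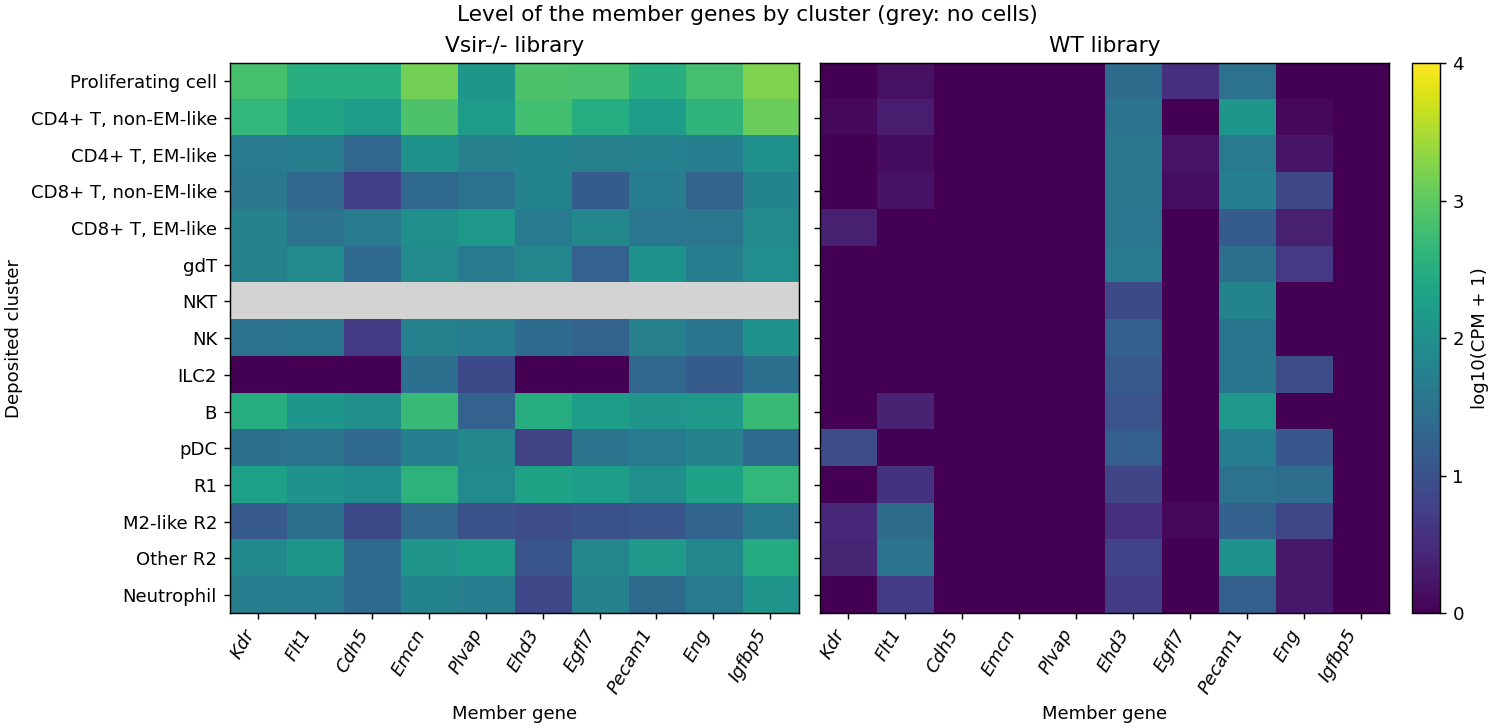
Level of each of the 10 genes (columns) by deposited cluster (rows) in the Vsir-/- library (left) and the WT library (right), as log10(CPM + 1). The proliferating and non-EM-like CD4+ rows are the brightest in the Vsir-/- library (4369 and 2645 CPM for the core genes together), while in WT only Pecam1, Ehd3, Flt1 and Eng reach more than 10 CPM in any cluster. Cdh5, Emcn, Plvap and Igfbp5 are listed at 0 in WT, the NKT row has no Vsir-/- cell, and basophils (2 Vsir-/- cells) are left out.

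To separate cells that carry many of these transcripts from cells that carry traces, each cell was placed by how many of the 7 core genes it held. Among the Vsir-/- cells, 1055 held none, 485 held 1, 108 held 2, 19 held 3, 21 held 4, 17 held 5, 57 held 6 and 82 held all 7. The distribution thus had a trough at 3 to 5 genes and a second peak at 6 and 7. Cells with at least 3 core genes are called marked. They numbered 196 of 1844, or 10.6% (9.26% to 12.1%), and held 97.7% (97.6% to 97.9%) of the core UMIs of the library. With each cell thinned to 1000 UMIs, 134 of 1766 cells (7.59%) were marked. In WT, 4802 cells held no core gene, 656 held 1 and 12 held 2, so 0 of 5470 were marked, but only Kdr, Flt1, Egfl7 and Ehd3 could be counted there. When 3 of these 4 genes were required, 8.57% of Vsir-/- cells qualified.

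Marked cells were found in 13 of the 15 clusters with Vsir-/- cells. The proliferating cluster had the highest share, 64 of 189 cells (33.9%, 27.2% to 41.1%), followed by the non-EM-like CD4+ cluster with 78 of 349 (22.3%, 18.1% to 27.1%). R1 macrophages had 17 of 237 (7.17%, 4.23% to 11.2%). The remaining 37 lay in 10 clusters, where the share ran from 2.00% of non-EM-like CD8+ T cells to 5.81% of the cells named pDC (plasmacytoid dendritic cells). In ILC2 the count was 0 of 19, for which the upper limit is 15.8% at 3 counts and 17.6% by Clopper-Pearson. After thinning, the order of the 3 leading clusters was the same, at 27.9%, 15.04% and 5.66%.

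**Figure D2:**
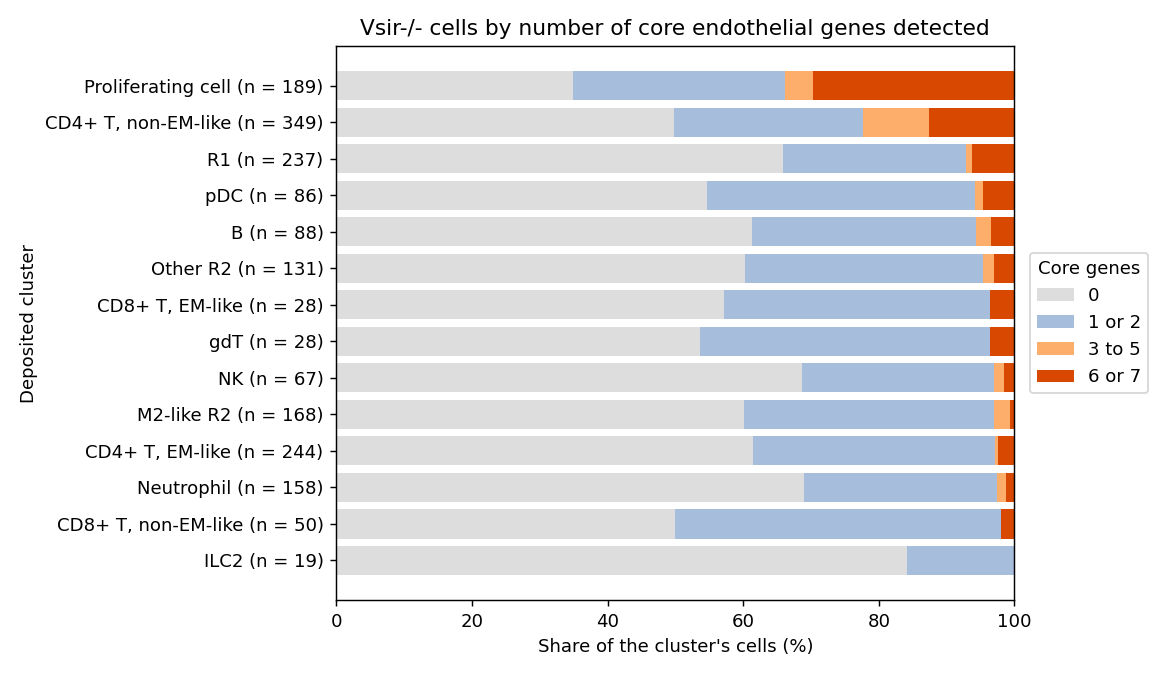
Share of Vsir-/- cells (%) of each cluster with 0, 1 or 2, 3 to 5, and 6 or 7 core endothelial genes detected. Cells with 6 or 7 core genes fill a visible part of the proliferating and non-EM-like CD4+ bars, where 33.9% and 22.3% of cells had 3 or more, and a thin end of most other bars.

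Marked cells carried the members at high level. The 196 cells together had 2250 CPM of Emcn against 13.3 CPM in the 1648 unmarked cells. Kdr had 1163 against 5.69 CPM, Egfl7 1019 against 10.9 CPM and Cdh5 498.4 against 3.21 CPM. Ehd3 had 1377 against 14.5 CPM, Flt1 605.3 against 6.86 CPM and Plvap 359.8 against 5.32 CPM. These 7 genes defined the marked cells. Of the 3 members that did not, Igfbp5 had 2930 against 35.0 CPM, Eng 1082 against 11.01 CPM and Pecam1 504.9 against 23.6 CPM. Emcn was the member detected in the most marked cells, 189 of 196 (96.4%), and Plvap in the fewest, 126 of 196 (64.3%). No single cell held over 4.65% of a member's UMIs in marked cells.

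Other endothelial genes, which had no part in the marking, followed the members. Of 28 such genes, 27 were at least 4-fold higher in marked than in unmarked cells, against 8.10% of all 14217 genes with at least 20 UMIs, and the list's median log2 ratio was 5.97 above the median of all genes. The transcription factors Sox18 (176.2 against 0.584 CPM) and Erg (106.1 against 0.802 CPM) were among them. Fabp4, a fatty acid-binding protein of capillaries, had 1710 against 24.2 CPM, and Ly6c1, a capillary surface antigen, 863.5 against 18.7 CPM. The phosphatase gene Ptprb had 589.2 against 9.56 CPM, the adrenomedullin receptor component Ramp2 569.5 against 10.1 CPM, and Cd34 535.2 against 6.13 CPM. The exception was Aqp1, a water channel shared by proximal tubule and vasa recta, at 358.8 against 265.4 CPM.

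In the cluster named non-EM-like CD4+, 26 of 28 genes were at least 4-fold higher in marked than in unmarked cells (8.96% of all genes), and in the proliferating cluster likewise 26 of 28 (8.01%). In neutrophils, B cells, NK cells and the 3 macrophage clusters together, the 28 genes summed to 8037 CPM in the 39 marked cells and 169.6 CPM in the 810 unmarked ones. All 10 members, 7 of which define the marked cells, were at least 4-fold higher there, as were 6.23% of all genes.

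Genes of the VEGF, angiopoietin and Notch pathways were also measured. Of 23 genes, 15 were at least 4-fold higher in marked cells, against the same 8.10%. The receptors were among them, with the VEGF coreceptor Nrp1 at 1002 against 58.6 CPM, the angiopoietin receptor Tek at 181.3 against 2.04 CPM and its partner Tie1 at 162.9 against 2.55 CPM. Notch1 had 186.4 against 31.0 CPM, and its ligand gene Dll4 41.7 against 0.948 CPM. Pdgfb, which encodes a growth factor for pericytes, had 180.9 against 35.4 CPM. The ligand genes Vegfa (56.8 against 44.8 CPM) and Vegfb (38.4 against 43.6 CPM) were not 4-fold higher.

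Levels of the other lists varied with the number of core genes. The 28 other endothelial genes summed to 404.4, 412.6 and 671.4 CPM in Vsir-/- cells with 0, 1 and 2 core genes. Cells with 3 core genes stood at 548.6 CPM (478.7 to 625.9) and cells with 4 at 5554 CPM. Much of the level in cells with 0 to 2 core genes was Aqp1. Without Aqp1, the other 27 genes stood at 156.4, 191.4 and 191.1 CPM in these cells and at 531.3 CPM (462.5 to 607.4) in the 19 cells with 3 core genes, which held a median of 3 of the 27 genes against 1 in each of the former. The 3-gene cells thus lay between the unmarked cells and those with 4 core genes, at 4413 CPM. The peak was 12290 CPM at 6 core genes, with 9746 CPM at 7. Median depth was 9233 UMIs at 2 core genes, 7824 at 3, 1913 at 4 and 38390.5 at 7. Depth thus fell from 2 to 4 core genes and was far higher at 7, and its part was not tested.

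**Figure D3:**
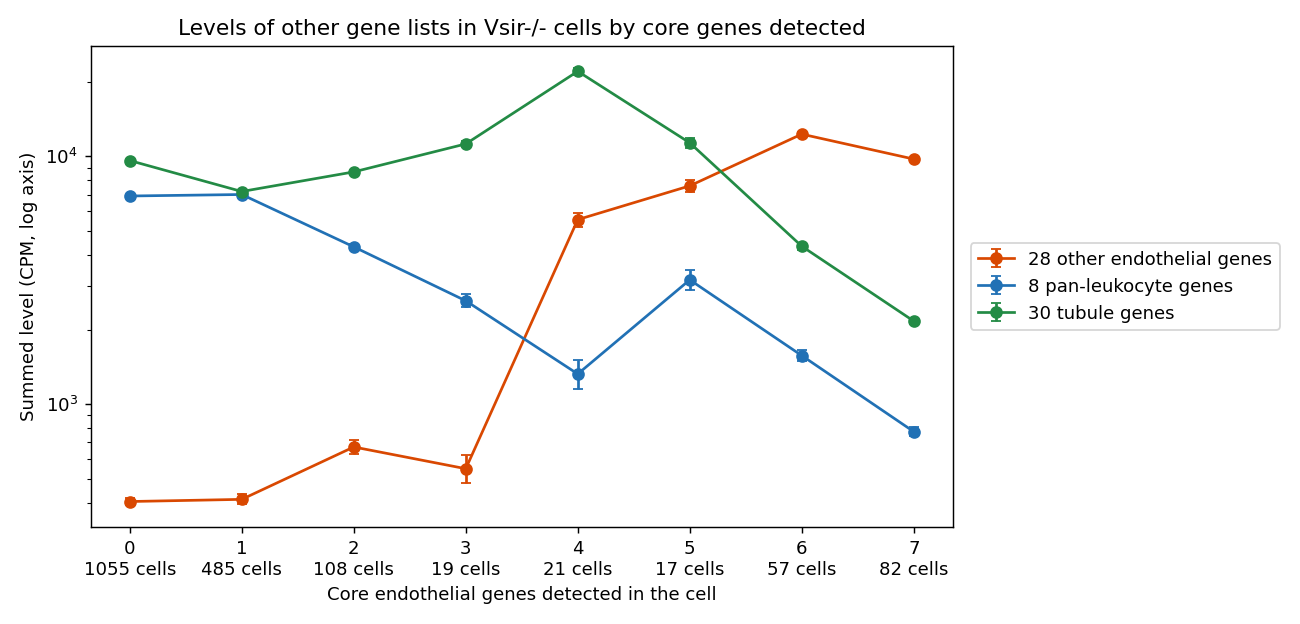
Summed CPM (log axis) of 3 gene lists in Vsir-/- cells grouped by the number of core endothelial genes detected, with exact 95% Poisson intervals. The 28 other endothelial genes, Aqp1 included, stay between 404.4 and 671.4 CPM up to 3 core genes and lie at 5554 CPM or more from 4 on, and the 8 pan-leukocyte genes run from 6916 CPM at 0 core genes to 774.1 CPM at 7.

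What else the marked cells carried depended on their cluster. Of the 78 marked cells named non-EM-like CD4+, 17 held a Ptprc UMI and 20 held a transcript of the T cell receptor complex, and in the proliferating cluster these were 12 and 14 of 64. The T cell list stood at 113.4 and 46.5 CPM there, compared with 554.5 and 1439 CPM in the unmarked Vsir-/- cells and 5498 and 2661 CPM in the WT cells of the same clusters. T cell genes were thus also lower in the unmarked Vsir-/- cells than in WT. Most marked cells of these clusters thus held no UMI of Ptprc or of the T cell receptor complex. Tubule genes were at 6253 CPM in marked and 22122 CPM in unmarked non-EM-like CD4+ cells, and at 17.1 CPM in WT.

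Marked cells in the other clusters held leukocyte transcripts. Ptprc was detected in 53 of these 54 cells. The same counts also made the clusters, so this contrast with the 2 leading clusters is a description. In the 17 marked R1 cells the core genes stood at 6699 CPM beside 11805 CPM of macrophage genes, while unmarked R1 cells had 21237 CPM of macrophage genes. Their pan-leukocyte genes were at 3986 against 7927 CPM. Median depth was 16001 UMIs in marked and 5848 in unmarked R1 cells, and marked cells were the deeper ones in 11 of 13 clusters. Some of these clusters held only 1 or 2 marked cells, and marking by a count of detected genes favors deep cells. Doublets were not called or removed here, and their part in these cells was not tested.

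The marked cells of the 2 leading clusters differed in cell cycle genes, which gave one cluster its name. Mki67 was detected in 60 of 64 marked proliferating cells and 8 of 78 marked non-EM-like CD4+ cells, with 458.2 and 14.2 CPM. The clusters were made from the same counts, so the contrast is a description. Among the members, the summed levels of both sets were close for Kdr (1193 and 1247 CPM), Flt1 (579.9 and 610.4 CPM) and Eng (1153 and 1104 CPM). Emcn (2524 and 2114 CPM), Egfl7 (1239 and 826.2 CPM), Cdh5 and Pecam1 had higher sums in the proliferating set. Ehd3 (1339 and 1748 CPM), Plvap (227.1 and 429.1 CPM) and Igfbp5 had higher sums in the non-EM-like CD4+ set. The sums weight deep cells most. In the median cell, Plvap (82.2 and 278.1 CPM) was still higher in the non-EM-like CD4+ set. Ehd3 (603.0 and 246.2 CPM), Igfbp5 (2797 and 1193 CPM) and Kdr (1180 and 570.2 CPM) were there higher in the proliferating set.

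Outside the marked cells a low level remained in every cluster. In unmarked neutrophils, B cells, NK cells and macrophages of the Vsir-/- library (810 cells), the core genes stood at 63.0 CPM (56.4 to 70.2), compared with 18.95 CPM (16.9 to 21.2) in the 2847 WT cells of the same clusters. Nearly all of the WT level was Flt1 (10.5 CPM) and Ehd3 (7.77 CPM), which stood at 12.6 and 6.60 CPM in the Vsir-/- cells. Of the 6 members with WT UMIs, Kdr, Egfl7 and Eng were at least 4-fold higher in the Vsir-/- cells, while 9.54% of all genes with at least 20 UMIs were. Kdr was detected in 37 of 810 cells (4.57%) and in 10 of 2847 WT cells (0.351%). Egfl7 was detected in 58 cells (7.16%) and 1 WT cell (0.0351%). Both genes have UMIs in the WT library, although Egfl7 rests on 1 WT cell here. Tubule genes were at 3181 CPM in the same Vsir-/- cells and 28.03 CPM in WT.

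The core genes other than Flt1 and Ehd3, namely Kdr, Emcn, Cdh5, Egfl7 and Plvap, were then summed. These 5 were chosen after their WT values were seen, and 3 of them are listed at 0 in WT, so their WT sum counts only Kdr and Egfl7. At least 1 of the 5 was detected in 24.9% (22.0% to 28.1%) of the 810 unmarked Vsir-/- cells. Kdr or Egfl7 was detected in 11.6% (9.48% to 14.0%) of these cells, at a median depth of 5530 UMIs, and in 0.386% (0.193% to 0.690%) of the 2847 WT cells, at 4036 UMIs. At 1000 UMIs per cell these shares were 1.86% (14 of 751 cells) and 0.0367% (1 of 2728 cells). Across 14 clusters of at least 19 unmarked cells the sum ran from 22.9 CPM (10.96 to 42.0) in non-EM-like CD8+ T cells to 72.1 CPM (36.0 to 129.1) in EM-like CD8+ T cells, and these intervals overlapped. As a share of all UMIs, neutrophils at 64.9 CPM (47.8 to 86.0) stood above M2-like R2 macrophages at 29.0 CPM (21.3 to 38.5). The counts behind these values were alike, with 48 UMIs in 154 neutrophils and 47 in 163 M2-like R2 cells. Median depth was 4057.5 and 10072 UMIs, so the gap in CPM is not a gap in UMIs per cell. In WT the highest cluster was pDC at 7.56 CPM, from 21 cells.

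**Figure D4:**
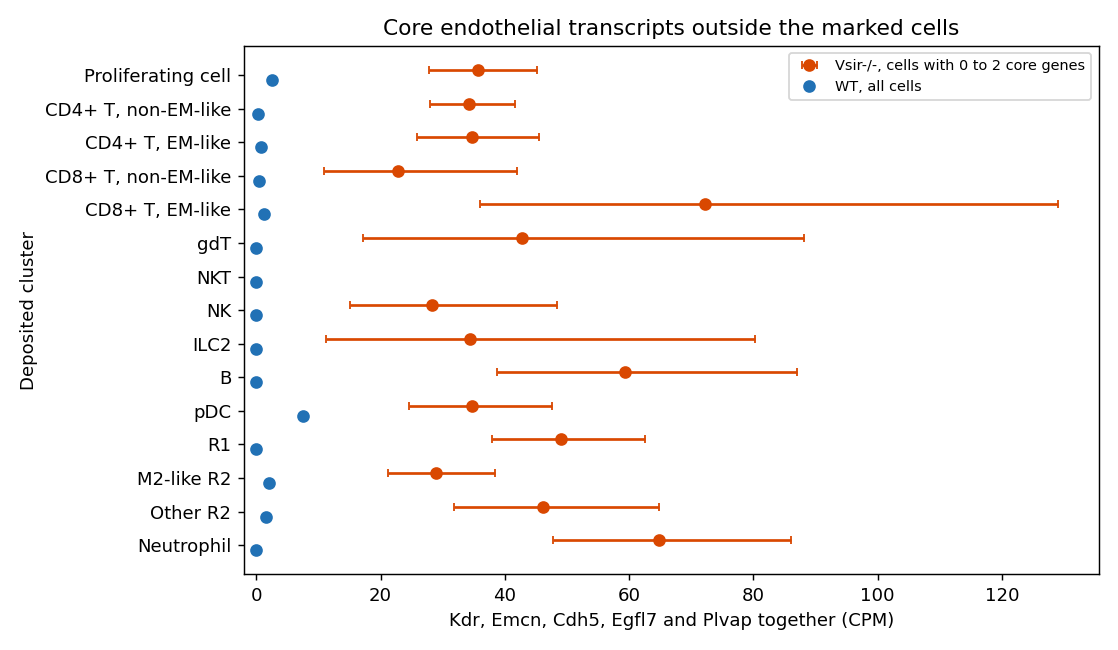
Summed CPM of Kdr, Emcn, Cdh5, Egfl7 and Plvap by cluster in Vsir-/- cells with 0 to 2 core genes (with exact 95% Poisson intervals) and in all WT cells (points only, because 3 of the 5 genes are listed at 0 there). Every Vsir-/- point lies between 22.9 and 72.1 CPM, and the WT points lie at 7.56 CPM or below. Basophils (2 Vsir-/- cells) are left out.

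The unmarked immune cells held the members in other proportions than the marked cells. Both sets were cut on the 7 core genes, and an unmarked cell could hold at most 2 of them, so the shares depend on the cut. The 82 cells with all 7 core genes held 28310 of the 35576 core UMIs in marked cells. Emcn was the leading core gene in both, at 30.9% of core UMIs in marked cells and 22.8% (18.4% to 27.6%) in the 810 unmarked ones. Flt1 made up 8.32% of core UMIs in marked cells and 20.1% (15.9% to 24.8%) in unmarked ones, and Plvap 4.95% and 10.8% (7.66% to 14.6%). Ehd3 went the other way, with 18.9% and 10.5% (7.41% to 14.3%). The 54 marked cells outside the proliferating and non-EM-like CD4+ clusters stood nearer to the unmarked ones. Their shares of Plvap, 11.6% (10.7% to 12.6%), and Ehd3, 12.55% (11.6% to 13.6%), overlapped those of the unmarked immune cells. Their share of Flt1, 12.1% (11.1% to 13.1%), did not. As a level, unmarked immune cells held 0.480% of the marked cells' Ehd3, 0.633% of Kdr and 0.637% of Emcn, but 1.89% of Plvap, 2.09% of Flt1 and 5.49% of Pecam1. In WT cells of these clusters Flt1 stood at 10.5, Ehd3 at 7.77 and Pecam1 at 54.6 CPM. The unmarked Vsir-/- cells had 12.6, 6.60 and 27.7 CPM. The values of these 3 genes therefore cannot be read as endothelial RNA alone, and the shares of the other core genes depend on them.

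Some of these genes had a leukocyte level of their own in both libraries. Ehd3 in unmarked EM-like CD4+ T cells was at 40.0 CPM (30.5 to 51.5) in the Vsir-/- library and 38.9 CPM (31.9 to 46.9) in WT, and in M2-like R2 macrophages at 5.54 and 2.504 CPM. Flt1 was at 33.6 CPM (21.5 to 50.0) and 32.0 CPM (23.0 to 43.4) in Other R2 macrophages, and at 6.80 and 2.88 CPM in R1. Eng was at 36.2 CPM (26.7 to 48.1) and 27.3 CPM (16.5 to 42.7) in R1. Over the 14 clusters, the intervals of the libraries overlapped in 14 for Flt1, 13 for Ehd3 and 11 for Eng. Many of the Vsir-/- counts were small, such as 0 Flt1 UMIs in unmarked NK cells and 1 in neutrophils, and 2 Eng UMIs in NK cells. In such clusters an overlap could hardly fail, so it does not show a like level. Ehd3 was lower in the Vsir-/- library among unmarked non-EM-like CD4+ cells, at 11.4 CPM (7.91 to 15.97) against 32.3 CPM (27.3 to 38.0). Eng was higher there, in the proliferating cluster and in M2-like R2 macrophages, where it stood at 16.0 CPM (10.5 to 23.5) against 6.15 CPM (4.05 to 8.94).

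Pecam1 behaved differently by cluster. In Other R2 macrophages it was at 120.3 CPM (96.2 to 148.6) in unmarked Vsir-/- cells and 108.5 CPM (91.2 to 128.1) in WT. In B cells it was at 25.1 CPM (12.5 to 44.9) and 135.8 CPM (123.9 to 148.6), and in the non-EM-like CD4+ cluster at 14.5 CPM (10.5 to 19.5) and 125.5 CPM (115.3 to 136.3). It was also lower in R1, at 6.80 CPM (3.11 to 12.9) against 31.7 CPM (19.8 to 47.9), in pDC, at 18.3 against 52.9 CPM, and in the proliferating cluster, at 10.9 against 29.8 CPM. In the rest of the 14 clusters the intervals overlapped, in some on few UMIs, such as 4 in unmarked Vsir-/- neutrophils. B cell genes were at 4243 CPM in unmarked Vsir-/- B cells and 10691 CPM in WT, and T cell genes in the non-EM-like CD4+ cluster at 554.5 and 5498 CPM. Macrophage genes in R1 went the other way, at 21237 and 14475 CPM. Their part in the Pecam1 level was not tested.

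Marked cells differed among themselves in Ehd3 and Plvap, the members tied to glomerular and peritubular capillaries. Of the 196 cells, 105 held more Ehd3, 67 held more Plvap and 24 held equal numbers of UMIs, while 92 held both. In the proliferating cluster 51 cells held more Ehd3 and 10 more Plvap, in the non-EM-like CD4+ cluster 35 and 27, and in the other clusters 19 and 30. This split was made after the values were seen, and the cells with more Ehd3 were deeper, at a median of 29888 against 9783 UMIs.

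Genes outside the members were compared across this split. In the glomerular list, Pi16 was at a log2 ratio of 3.26 (2.76 to 3.80), higher in cells with more Ehd3. The transcription factor gene Tbx3 was at 2.57 (2.08 to 3.11) and Nostrin, an eNOS-binding protein, at 2.37 (1.93 to 2.84). Gata5, a transcription factor, was at 5.08 (3.22 to 8.13), detected in 67 of 105 cells with more Ehd3 and in 2 of 67 with more Plvap. Lpl, lipoprotein lipase, was at 1.64 and Cyp26b1, a retinoic acid hydroxylase, at 1.35. Of the 10 glomerular genes, 7 lay on the Ehd3 side, as did 52.0% of all 11420 genes with at least 20 UMIs. Ptprr, at −2.18 (−2.91 to −1.44), and Sost, at −1.33 (−2.76 to 0.24), did not, and Fabp1 had fewer than 20 UMIs.

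Other vascular beds were mixed. In the peritubular and venous list, Rgcc was at −5.19 (−5.74 to −4.67) and Igfbp3 at −3.70 (−4.09 to −3.33), higher in cells with more Plvap. Gpihbp1, which anchors lipoprotein lipase in capillaries, was at 1.29, the phosphatase gene Plpp3 at 1.03 and the venous transcription factor gene Nr2f2 at 0.41, on the Ehd3 side. Npr3 (0.78), Tgfbr3 (0.32, −0.28 to 0.98) and Cd36 (0.14, −0.39 to 0.71) lay there too. Most genes of this list thus lay on the Ehd3 side, as in the glomerular list. Only Gpihbp1 and Plpp3 stayed there once cells with mesangial transcripts, described below, were left out. In the arterial and vasa recta list, the urea transporter gene Slc14a1 was at −7.15 (−9.45 to −5.55), with 91 UMIs in 14 cells on the Plvap side and 3 UMIs on the other. The ephrin gene Efnb2 was at 1.99, the connexin genes Gja5 and Gja4 at 1.10 and 0.57, the taurine transporter gene Slc6a6 at 0.16 and Crip1 at −0.55. Bmx was at −3.61 (−5.00 to −2.38), Fbln5 at −1.25 (−1.63 to −0.86) and Cldn10 at −1.12 (−1.73 to −0.48). Edn1 was at −0.37 (−0.90 to 0.20). Most genes of the arterial and vasa recta list thus lay on the Plvap side.

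**Figure D5:**
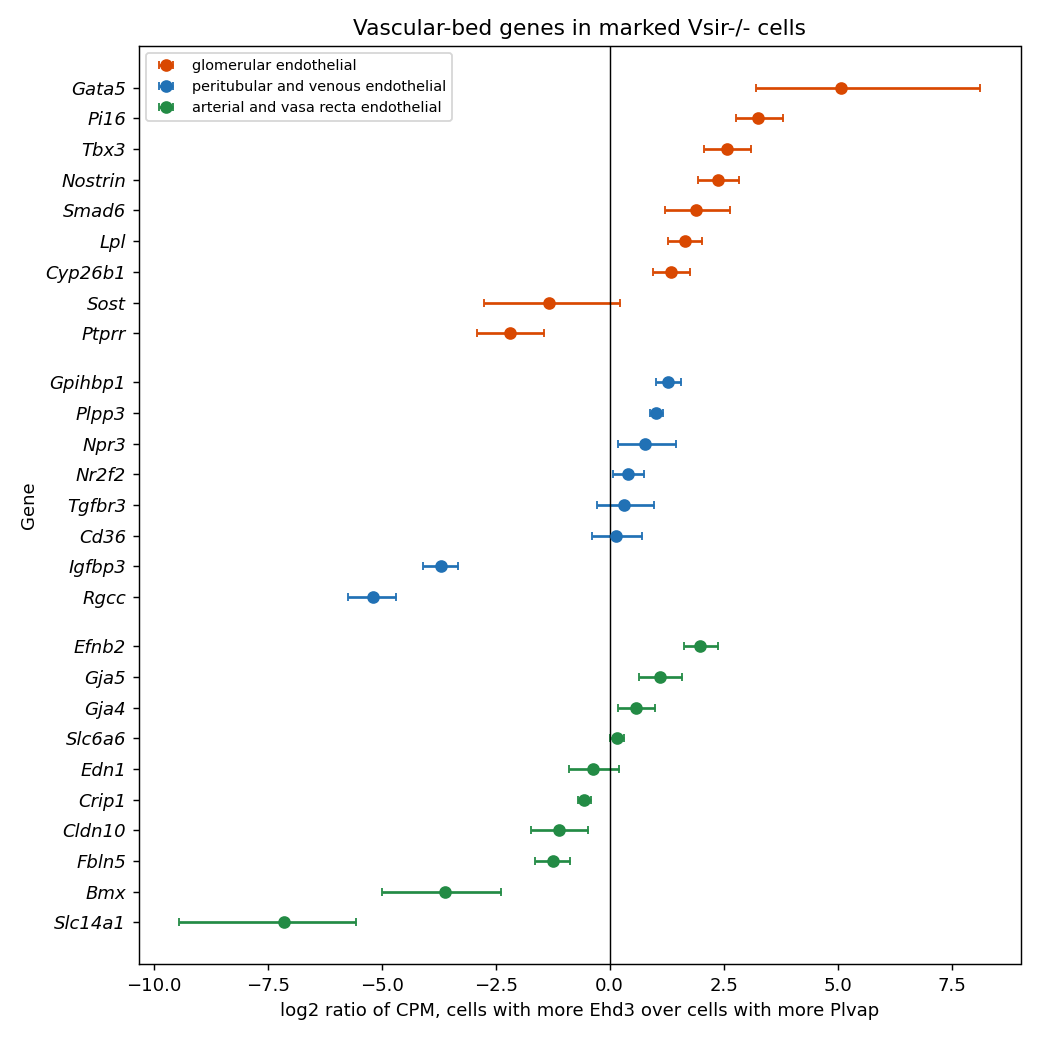
Log2 ratio of CPM between marked Vsir-/- cells with more Ehd3 (105 cells) and with more Plvap (67 cells), for the genes of 3 vascular-bed lists with at least 20 UMIs, with exact 95% conditional intervals for counting error. Glomerular genes lie mostly to the right, led by Gata5 at 5.08, as do most peritubular and venous genes shown. Slc14a1 (−7.15), Rgcc (−5.19) and Igfbp3 (−3.70) lie to the left, as do most arterial and vasa recta genes.

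Mesangial transcripts moved with Ehd3. The mesangial genes Pdgfrb or Itga8 were detected in 47 of 105 cells with more Ehd3, at a median of 54630 UMIs, and in 4 of 67 with more Plvap. In the cells with neither gene (58 with more Ehd3 and 63 with more Plvap, median 14421 and 9707 UMIs), Gata5 was at a log2 ratio of 5.37, Pi16 at 2.91, Tbx3 at 2.52, Nostrin at 2.31, Igfbp3 at −2.39 and Rgcc at −4.33. In these cells Lpl (0.54) and Cyp26b1 (0.41) were closer to 0. Gja5 (−1.88), Npr3 (−1.88) and Nr2f2 (−0.68) lay on the Plvap side there, and Crip1 was at 0.14 (−0.02 to 0.29). The intervals of Tgfbr3 (−0.74) and Cd36 (−0.09) spanned 0. Of the peritubular and venous list, only Gpihbp1 (0.95) and Plpp3 (0.79) remained on the Ehd3 side in these cells. Over all marked cells, 10 of 12 mesangial, pericyte and smooth muscle genes were at least 4-fold higher than in unmarked cells (8.10% of all genes). The marked cells were not alike in this. The 12 genes summed to 1272 CPM at 7 core genes, 88.4 CPM at 6 and 844.1 CPM at 3, against 127.1 CPM in unmarked cells. Within the non-EM-like CD4+ cluster 10 of 11 were 4-fold higher (8.96% of all genes). In the proliferating cluster 4 of 11 were (8.01%), and in neutrophils, B cells, NK cells and macrophages 2 of 6 (6.23%).

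The genes most like the core sum over the 13 Vsir-/- clusters of at least 20 cells were found by Pearson correlation of log2(CPM + 1), among 11293 genes with at least 100 UMIs. The clusters share 1 library, so the values describe it only. The 10 nearest genes outside the members were Plpp1 (r = 0.989), Myct1 (0.979), Slc9a3r2 (0.975), Sparc (0.969), Col4a2 (0.969), Col4a1 (0.967), Hspg2 (0.967), Serpinh1 (0.966), Npdc1 (0.964) and Meis2 (0.964). Sparc, Col4a1, Col4a2 and Hspg2 encode matrix and basement membrane proteins, and Serpinh1 a collagen chaperone. Among the members, Kdr (0.988) and Emcn (0.987) were nearest to the sum that contains them, and Plvap (0.552) was farthest.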

How the data were processed

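Kidney cells from mice with NTN were captured in droplets and sequenced as 1 WT and 1 Vsir-/- library. The authors aligned and counted the reads with Cell Ranger (version 3.1.0), kept genes found in 5 or more cells, cells with at least 200 UMIs and up to 10% mitochondrial UMIs, and merged, clustered and named the cells in Seurat (version 3.2.3) under R (version 4.0.3). The deposited matrix gives raw UMI counts for each gene in each cell. The authors' table of cells gives the mitochondrial percent, used here only for an alternative limit. Its 2 columns of map coordinates were not used. The submitters' processing notes name mm9 as the build, whereas the promoter windows are from GRCm38.p6, and no coordinates were carried between them. Any removal of doublets is not given in the sources used here, and no caller was run.

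The members and all gene lists were chosen with earlier results of these data known. UMIs were added up within each cluster and library, and intervals are exact Poisson (levels), Clopper-Pearson (shares) and conditional (ratios). With a single library for each genotype no test was made, since cells do not stand in for replicates. Gene counts at 4-fold or more use genes with at least 20 UMIs in both sets of cells together and 0.5 UMIs added. For thinning, 1000 UMIs were drawn from each cell without replacement, leaving out 78 Vsir-/- and 167 WT cells. Named genes were the members, any listed gene and at least the 5 of each endothelial list with the most UMIs in marked cells, the 10 nearest genes by correlation, Vsir and Ptprc. The gene ratios and the intervals were tested on simulated counts, and thinning was checked for the depth it gives. The other steps were not tested in this way. Python 3.11.15 was used with numpy 2.4.6, scipy 1.17.1, pandas 2.3.3 and matplotlib 3.10.9.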

Additional observations from a re-analysis of the deposited data

How the results depend on the processing

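No paired analysis was possible because each genotype has 1 library. Of 39 alternatives, 17 stayed within the counting interval of the main value and 22 left it. For the list median a tolerance of 0.1, set after the data were seen, took the place of the interval. Shares and CPM levels cannot change sign, so only the log2 results could reverse, and they did not. The log2 ratio of the summed core genes between the libraries had a main value of 6.18. It was 6.49 with cells of at most 5% mitochondrial UMIs, 5.07 with cells weighted equally and 5.29 after thinning to 1000 UMIs. All of these sums count Emcn, Cdh5 and Plvap, listed at 0 in WT, on the Vsir-/- side only. They are therefore not ratios of the same measured genes. With the 4 core genes that have WT UMIs, the log2 ratio was 5.38. The share of marked Vsir-/- cells was 16.5% when 2 core genes sufficed and 7.59% after thinning. It was 8.36% without cells over 40000 UMIs, 23.5% among cells with no Ptprc UMI and 8.57% with 3 of the 4 core genes with WT UMIs. The share of core UMIs in marked cells was 98.5% at 2 core genes, 97.5% at 4, 82.1% after thinning, 98.2% with at most 5% mitochondrial UMIs and 93.2% without cells over 40000 UMIs. The core level in unmarked immune cells was 51.5 CPM at 2 core genes and 96.1 CPM with cells weighted equally. The median of the other endothelial genes was 5.57 at 2 core genes and 5.81 within the non-EM-like CD4+ cluster. The core level of the proliferating cluster was 3060 CPM after thinning, 5394 CPM with at most 5% mitochondrial UMIs, 2800 CPM with cells weighted equally and 4586 CPM without mitochondrial and tubule genes in the denominator. The cause of these shifts was not tested. The limit of 40000 UMIs, the Ptprc condition and the 4-gene settings were chosen after seeing the data. Clusters with under 30 Vsir-/- cells, and genes listed at 0 in WT, limit what can be compared.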

Other observations

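One marked cell of the non-EM-like CD4+ cluster held most UMIs of 4 lymphatic endothelial genes found in the marked cells. This cell had 7099 UMIs, among them 139 of the 141 UMIs of Ccl21a, the chemokine of lymphatic vessels, all 28 of Mmrn1, 20 of the 22 of Lyve1 and 7 of the 12 of Prox1, the lymphatic transcription factor. It held 8 UMIs of Flt4, no Ehd3 and 1 of Plvap. Flt4, the receptor for VEGF-C, had 274 UMIs over all marked cells and 5 in unmarked cells, and Pdpn was at 10.0 CPM in marked and 11.9 CPM in unmarked cells. The cell was singled out after its values were seen.

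Genes of endothelial activation were mixed. Of 12 genes, 7 were at least 4-fold higher in marked than in unmarked Vsir-/- cells, against 8.10% of all genes. Vcam1, an adhesion molecule for leukocytes, stood at 151.3 against 33.3 CPM, Thbd (thrombomodulin) at 140.9 against 7.15 CPM, the factor VIII gene F8 at 119.6 against 1.75 CPM and the chemokine gene Cx3cl1 at 121.0 against 4.45 CPM. Cxcl10 stood at 137.2 against 91.9 CPM and Icam1 at 74.6 against 74.1 CPM, and both are also made by leukocytes. Sele, the selectin of activated endothelium, had 52 UMIs in marked cells and 1 in unmarked cells. No WT cell was marked, so these levels have no WT value to be set against.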
